A study of Rattus norvegicus with 9 samples.

Results

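The interleukin-6 family genes described here are 9 of the 32883 genes in the deposited table, chosen by name: the ligands Il6, Osm, Lif and Il11, and the receptor chains Il6st, Il6r, Osmr, Lifr and Il11ra1. Each name matched 1 row. The study sequenced RNA of the joint lining, or synovium, taken from Lewis rats, with 3 libraries per group: TZG, AIA and NC. The labels give each group by these letters alone. From the study's title, TZG was read as rats given Tianhe Zhuifeng liquid extract, AIA as the rheumatoid arthritis model and NC as the control. Dose, time, age, sex, how arthritis was produced and whether TZG rats also had arthritis are not in the labels. Strain and tissue are shared by all groups. Whether each library is a different animal is not stated, so p-values measure only how far these libraries spread, and that spread may be technical.

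Cytokines of this family act through the shared signalling chain gp130, encoded by Il6st. Interleukin-6 and interleukin-11 first bind their own alpha chains (Il6r, Il11ra1), and the complex then joins a pair of gp130 chains. Leukaemia inhibitory factor (Lif) pairs gp130 with the LIF receptor (Lifr), and oncostatin M (Osm) can use the oncostatin M receptor (Osmr) or Lifr beside gp130. The engaged receptors activate Janus kinases and STAT3, and STAT3 induces the inhibitor Socs3, which closes the loop. In arthritic joints synovial fibroblasts are a known source of interleukin-6, and myeloid cells of oncostatin M.

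The promoters of both ligands found in RefSeq's table (build GRCr8) are shown first, because Il6 had the highest fold change of the family and Il11 the most uneven reads. Each line holds the 250 bases before the annotated start, 5′ to 3′ on the gene's strand, and capitals mark every match to a motif searched.
Il6, chr4:5894576-5894825, minus strand: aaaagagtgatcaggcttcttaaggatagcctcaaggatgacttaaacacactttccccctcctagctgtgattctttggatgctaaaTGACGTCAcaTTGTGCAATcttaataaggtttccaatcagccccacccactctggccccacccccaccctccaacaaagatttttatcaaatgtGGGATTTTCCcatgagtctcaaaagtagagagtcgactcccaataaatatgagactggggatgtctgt
Il11, chr1:78098372-78098621, plus strand: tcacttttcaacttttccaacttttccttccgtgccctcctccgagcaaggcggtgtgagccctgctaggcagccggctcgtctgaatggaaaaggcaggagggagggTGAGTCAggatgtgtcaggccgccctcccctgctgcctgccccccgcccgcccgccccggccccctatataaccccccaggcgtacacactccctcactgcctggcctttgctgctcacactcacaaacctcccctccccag

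The motifs were searched on both strands, with none of the matches overlapping another. The NF-kB motif, GGG and TTTCC with any 2 bases between them, matched Il6 at -68 to -59 and is found in 1.3% of the 33469 windows of this length in the table. The C/EBP motif TTGNGCAAT matched Il6 at -152 to -144 and is held by 0.532% of windows. The cyclic AMP response element TGACGTCA matched Il6 at -162 to -155 and is held by 1.59%. The AP-1 motif TGANTCA, held by 6.34%, matched Il11 at -142 to -136 and Osmr at -33 to -27. The STAT motif TTCNNNGAA, held by 7.67% of windows, matched none of the 6 members that have a window, and Il6r, Il6st and Lifr matched no motif searched. The motif letters were chosen with these sequences in view, so the shares cannot show that the matches are unusual. A match describes letters and is not a measured binding site.

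Library totals ran from 12536231 to 16402126 reads, and a count of 0 allows a level of up to 3 reads, counting error only. By library totals alone, that is 0.183 to 0.239 CPM (reads scaled to a common library size) depending on the library. CPM below are also scaled for composition, and on that scale 3 reads are 0.265 CPM in C61. All 10 synovial fibroblast markers listed had reads in every library. Libraries differed in other tissue: 8 skeletal muscle genes summed to 26300 CPM in C61 of NC against at most 1380 CPM in any other library, 9 erythroid genes to 15000 CPM in M8 of AIA against at most 3090 CPM, and 10 cartilage genes to 8820 CPM in G48 of TZG against at most 795 CPM. Results are therefore also given without these 3 libraries where that matters. Of the 9 columns, C56, C59, C61, G30 and M6 carry the number of a sample title in their group, and G31, G48, M2 and M8 were placed by their letter. A fit on the 5 matched columns left 1 library in TZG and 1 in AIA and called no gene in any comparison.

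Il6, the founding ligand, was sparse outside TZG. It had 127, 161 and 92 reads in TZG libraries G30, G31 and G48, against 13, 20 and 0 reads in AIA libraries M2, M6 and M8, and 13, 8 and 0 reads in NC libraries C56, C59 and C61. Scaled for library size and composition, these are 8.46, 11.1 and 5.88 CPM in TZG, 0.953, 1.36 and 0 CPM in AIA and 0.825, 0.527 and 0 CPM in NC. Every TZG library lay above every AIA and NC library, and the AIA and NC libraries overlapped. The libraries without an Il6 read, M8 and C61, are those rich in erythroid and muscle transcripts. In bulk tissue, fewer cells of a type and less RNA per cell cannot be told apart.

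Lif, which binds Lifr, had 28, 58 and 90 reads in TZG libraries G30, G31 and G48, against 9, 14 and 3 reads in AIA and 14, 17 and 3 reads in NC. That is 3.88 ± 1.95 CPM in TZG, 0.606 ± 0.375 CPM in AIA and 0.757 ± 0.442 CPM in NC (SD, n = 3 each). TZG lay apart from both other groups, which overlapped.

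Osm, a ligand made largely by myeloid and T cells, had 5.8, 2.91 and 4.92 CPM in TZG libraries G30, G31 and G48, against 2.35, 1.56 and 1.38 CPM in AIA and 0.698, 1.45 and 0.353 CPM in NC. The TZG libraries were again the highest, with AIA libraries below them and 1 NC library, C59, inside the AIA range. Within TZG the ligands did not peak together: Il6 was highest in G31, Lif in G48 and Osm in G30.

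Il11 was measured on few reads and its TZG value is 1 library. G31 held 53 of its 67 TZG reads, with 4 in G30 and 10 in G48, against 6, 12 and 3 reads in AIA and 6, 5 and 3 reads in NC. G30 fell inside the range of AIA and NC. Il11 did not meet the filter on low counts and was not tested, so 8 of the 9 members were. Il6, Osm and Lif met it with all 3 TZG libraries but with 2, 3 and 1 AIA libraries and 1, 1 and 2 NC libraries, while the 5 receptor chains met it in every library.

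**Figure D1:**
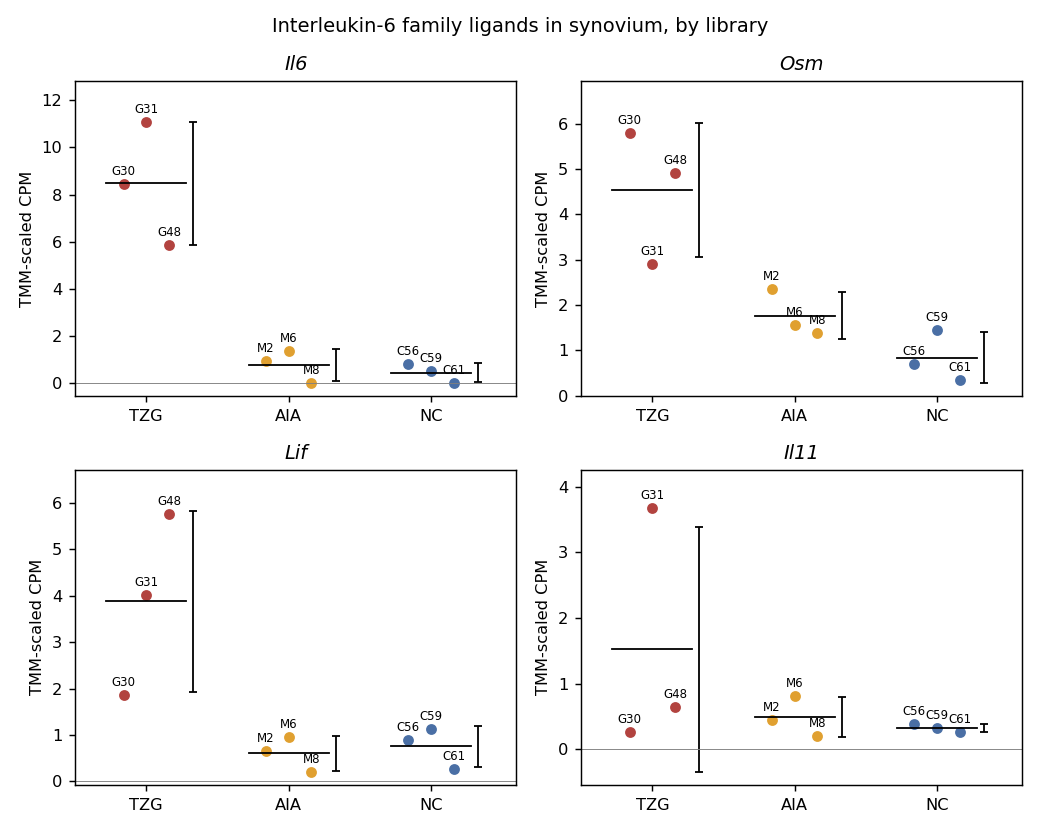
TMM-scaled CPM (vertical axes) of the 4 ligands in each library of TZG, AIA and NC; points are libraries, horizontal lines are group means and bars are SD (n = 3). Il6 lies between 5.88 and 11.1 CPM in TZG and at most at 1.36 CPM elsewhere, and the Il11 mean of TZG rests on G31 at 3.67 CPM.

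Receptor chains were far more abundant than ligands and differed less between groups. Il6st, the shared chain, stood at 571, 429 and 501 CPM in TZG libraries G30, G31 and G48, against 695, 742 and 710 CPM in AIA and 589, 455 and 465 CPM in NC. AIA was the group that stood apart, above all libraries of TZG and NC, while TZG and NC overlapped.

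Lifr, the signalling chain for leukaemia inhibitory factor, had 110, 62.3 and 62.6 CPM in TZG libraries G30, G31 and G48, against 154, 142 and 191 CPM in AIA and 165, 152 and 165 CPM in NC. No TZG library reached the lowest library of the other groups, and AIA and NC overlapped.

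Il6r, the interleukin-6 alpha chain, averaged 93.3 ± 11.8 CPM in TZG, 71.6 ± 3.85 CPM in AIA and 59.7 ± 21.4 CPM in NC (SD, n = 3 each), with the low value of NC coming from C61 at 35.7 CPM. Osmr averaged 70.7 ± 14.6 CPM in TZG, 62.4 ± 15.8 CPM in AIA and 44.6 ± 5.53 CPM in NC. Its TZG and AIA libraries overlapped, and its NC libraries lay below all of TZG. Il11ra1, the interleukin-11 alpha chain, averaged 73.7 ± 14.1 CPM in TZG, 93.7 ± 5.07 CPM in AIA and 105 ± 31.1 CPM in NC, with C61 at 71.4 CPM inside the TZG range. The locus of Il11ra1 overlaps that of Ccl27 in the table, so its counts may be shared with that gene.

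**Figure D2:**
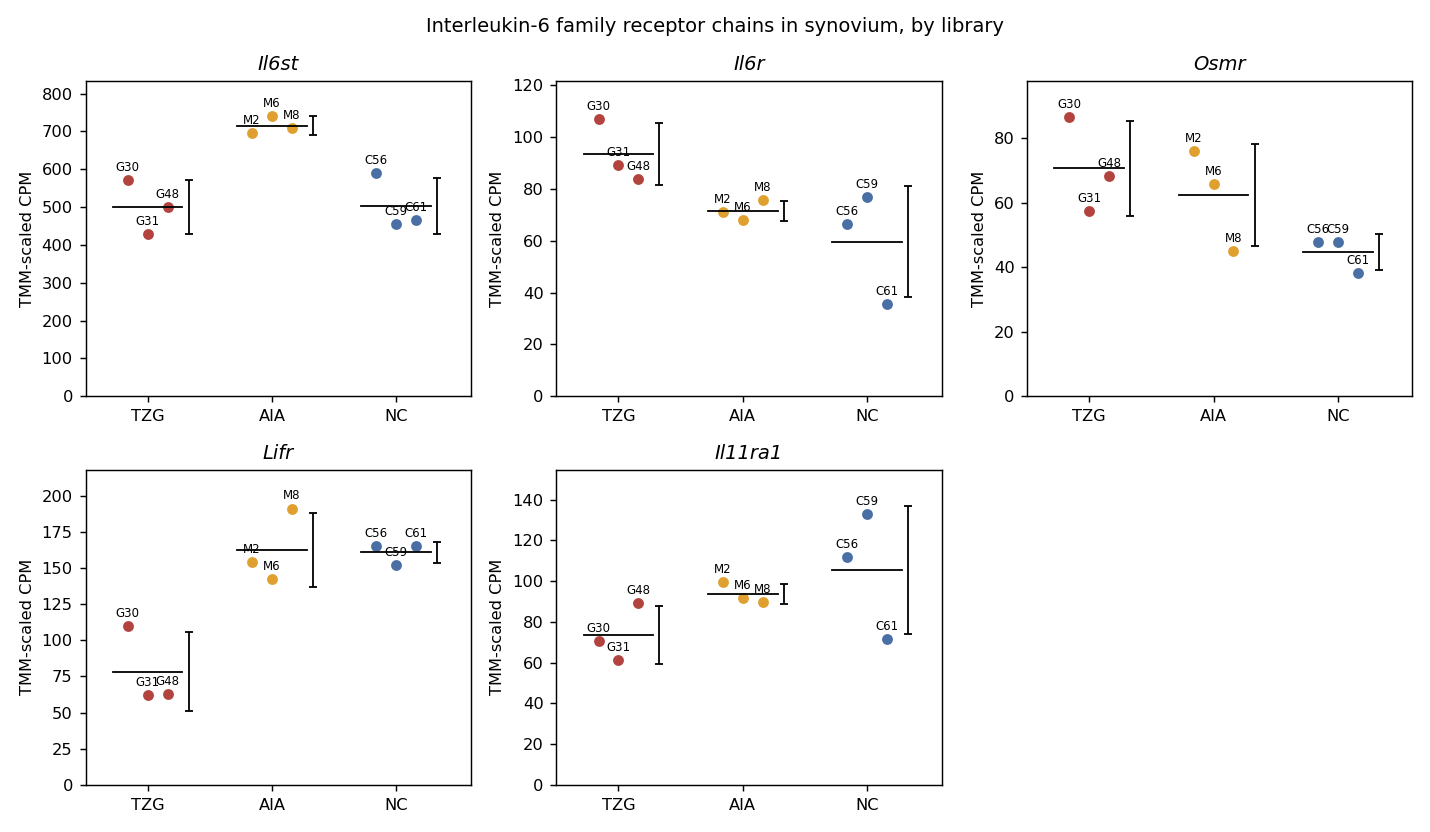
TMM-scaled CPM (vertical axes, from 0) of the 5 receptor chains in each library of TZG, AIA and NC; points are libraries, horizontal lines are group means and bars are SD (n = 3). Il6st is highest in the 3 AIA libraries, at 695 to 742 CPM, and Lifr is lowest in the 3 TZG libraries, at 62.3 to 110 CPM.

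The comparison of TZG with NC had the most calls. Il6 and Osm rose and Lifr fell, by edgeR's quasi-likelihood test with adjusted p under 0.05 over the 15068 genes tested. The log2 fold change of Il6 was 4.14 ± 1.03 SE (adjusted p = 0.041), that of Osm 2.41 ± 0.51 SE (adjusted p = 0.025) and that of Lifr -1.04 ± 0.23 SE (adjusted p = 0.029). These are 3 of 8 members tested, where 10.3% of all genes passed, 5.79% higher and 4.53% lower. Lif missed the threshold at 2.31 ± 0.65 SE (adjusted p = 0.056), as did Osmr at 0.66 ± 0.22 SE (adjusted p = 0.086) and Il6r at 0.64 ± 0.25 SE (adjusted p = 0.13). Il11ra1 had -0.51 ± 0.22 SE (adjusted p = 0.17). For Il6st the value was -0.01 ± 0.16 SE (adjusted p = 0.98), with opposing signs across alternatives. Libraries did not overlap for 6 of the 9 members, 5 higher and 1 lower, against 32.6% of tested genes, 17.4% higher and 15.2% lower. DESeq2 called 5 members, adding Lif (adjusted p = 0.0073) and Osmr (adjusted p = 0.039), where it called 19.6% of all genes. Il6 lost its call in limma-voom (adjusted p = 0.057) and in edgeR with no filter on low counts (adjusted p = 0.056), which left 2 members each, Osm and Lifr, where 7.83% and 5.63% of all genes passed.

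These calls lie close to the threshold. With 1 library left out, Il6 kept its call only without M8 (log2 fold change 3.66 to 4.85, adjusted p = 0.022 to 0.1 in edgeR). Osm lost its call without C56, G30 or G48 (adjusted p = 0.032 to 0.082 in edgeR), and Lifr without C56, C59, C61, G31 or G48 (adjusted p = 0.032 to 0.087 in edgeR). No direction changed among these 3 members. Without C61, M8 and G48 together, Il6, Osm and Il11ra1 passed, where 14.4% of all genes did, and Lifr did not, at -0.87 (edgeR adjusted p = 0.064). In the authors' deposited table the q-values are 1.29e-07 for Il6, 0.00193 for Osm, 0.00792 for Lif and 0.024 for Lifr, with 8.54% of all genes under 0.05.

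The comparison of TZG with AIA sets the extract group beside the arthritis model, and shares its TZG libraries with the comparison against NC. Il6 stood at 8.49 ± 2.63 CPM in TZG and 0.77 ± 0.697 CPM in AIA (SD, n = 3 each), Lif at 3.88 ± 1.95 CPM in TZG and 0.606 ± 0.375 CPM in AIA, and Lifr at 78.4 ± 27.7 CPM in TZG and 162 ± 25.9 CPM in AIA. None of the 8 members passed in edgeR, where 0% of all genes did. At an unadjusted p under 0.05 there were 5 members, Il6, Il6st, Osm, Lif and Lifr, and 12.6% of all genes. The log2 fold changes were 3.45 ± 0.98 SE for Il6 (edgeR adjusted p = 0.3), 2.66 ± 0.67 SE for Lif (edgeR adjusted p = 0.26), 1.36 ± 0.48 SE for Osm (edgeR adjusted p = 0.33), -1.05 ± 0.23 SE for Lifr (edgeR adjusted p = 0.26) and -0.52 ± 0.16 SE for Il6st (edgeR adjusted p = 0.31).

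Libraries of TZG and AIA did not overlap for 7 of the 9 members, against 23.4% of tested genes, 10.7% higher and 12.7% lower. Il6, Lif, Osm and Il6r were higher and Lifr, Il6st and Il11ra1 lower in TZG. Osmr and Il11 overlapped. DESeq2 called 3 members, Il6 (adjusted p = 0.042), Lif (adjusted p = 0.017) and Lifr (adjusted p = 0.0071), where it called 1.99% of all genes, and limma-voom called no member and 0% of all genes. In the authors' deposited table the log2 fold change of Il6 is 3.47 with a q-value of 0.00108, that of Lif 2.67 with a q-value of 0.0206 and that of Lifr -1.02 with a q-value of 0.0622, where 0.578% of all genes are under 0.05.

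The comparison of AIA with NC showed the smallest differences of the ligands. None of the 8 members passed, where edgeR called 0.0133% of all genes. At an unadjusted p under 0.05 there was 1 member, Il6st, and 15% of all genes. Il6st had a log2 fold change of 0.51 ± 0.16 SE (edgeR adjusted p = 0.19; DESeq2 adjusted p = 0.032), and DESeq2 called 6.24% of all genes. It was also the 1 member whose libraries did not overlap, against 20.5% of tested genes, with 11.2% of tested genes higher in AIA. Osm had 1.05 ± 0.51 SE (edgeR adjusted p = 0.38), Osmr 0.48 ± 0.22 SE (edgeR adjusted p = 0.34), Il6 0.69 ± 1.07 SE (edgeR adjusted p = 0.82), and Lif -0.35 ± 0.7 SE (edgeR adjusted p = 0.86). Only 33 AIA reads and 21 NC reads stood behind the Il6 value, which was -0.01 without M6. The wide errors of Il6 and Lif mean that changes of several fold in either direction were not detectable at this depth. Lifr had 0.01 ± 0.23 SE, Il6r 0.26 ± 0.25 SE and Il11ra1 -0.17 ± 0.22 SE. No member has a q-value under 0.05 in the authors' deposited table, where 4.32% of all genes do.

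**Figure D3:**
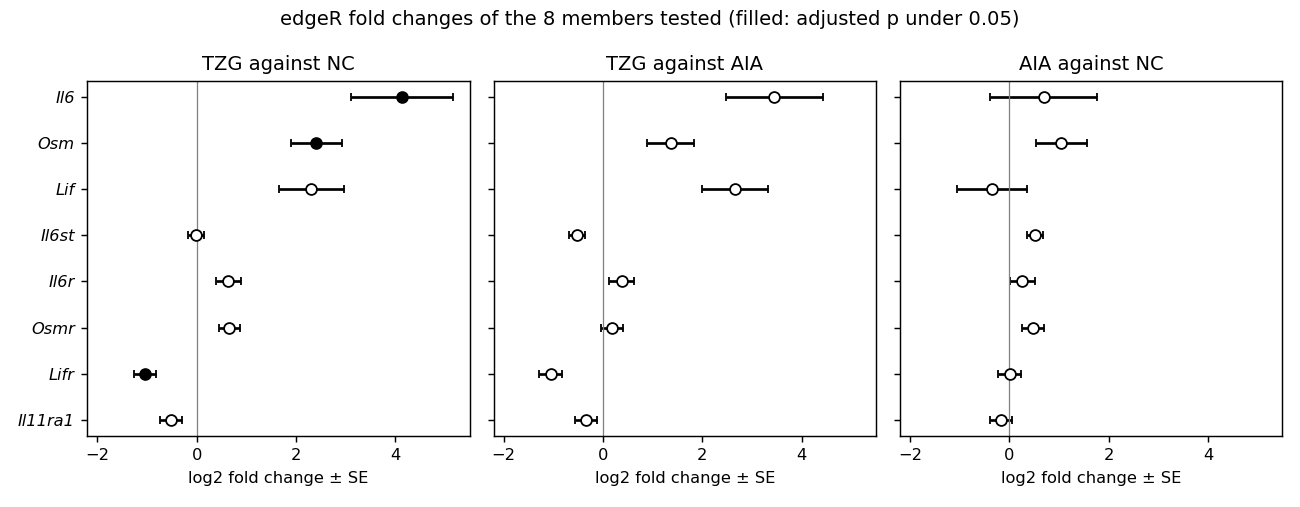
edgeR log2 fold changes (horizontal axes) with SE bars for the 8 members tested, 1 panel per comparison; filled points have an adjusted p under 0.05. Il6, Osm and Lifr are filled in TZG against NC, and no point is filled in the other panels.

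Levels of different members were compared per gene length, as FPKM (fragments scaled by gene length and library size) computed from the counts. Il6st ranked first and Il11ra1 next in all 9 libraries, at 164 ± 25.6 and 43.6 ± 6 FPKM in TZG, 234 ± 10.2 and 55.7 ± 2.86 FPKM in AIA, and 156 ± 28.7 and 59.7 ± 19.9 FPKM in NC (SD, n = 3 each). Lifr was the third in every AIA and NC library, at 30.7 ± 4.66 FPKM in AIA and 28.7 ± 1.55 FPKM in NC. In every TZG library it was the fifth, below Osmr and Il6r, at 14.9 ± 5.75 FPKM against 21.9 ± 4.98 FPKM for Osmr and 20.7 ± 3.48 FPKM for Il6r. Osmr and Il6r changed places between libraries of each group and cannot be ordered. The 4 ligands together summed to 11.7, 15.9 and 9.8 FPKM in TZG libraries G30, G31 and G48, against 2.28, 2.74 and 0.693 FPKM in AIA and 1.61, 1.66 and 0.331 FPKM in NC. Il6 made up 72.6%, 70.4% and 54.8% of that sum in TZG, against 40.4%, 48.9% and 0% in AIA and 48.9%, 30% and 0% in NC.

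A ratio of 2 genes within a library does not depend on how libraries are scaled. The ratio of Lifr to Osmr, the chains that oncostatin M can use beside gp130, was 0.781, 0.663 and 0.561 in TZG libraries G30, G31 and G48, against 1.24, 1.31 and 2.59 in AIA and 2.11, 1.94 and 2.65 in NC. Osmr transcripts exceeded Lifr transcripts per length in the TZG libraries alone. The ratio of Il6st to Lifr was 8.95, 11.9 and 13.9 in TZG, against 7.81, 9.08 and 6.42 in AIA and 6.19, 5.18 and 4.86 in NC. Here G30 lay inside the AIA range, and NC lay below both groups. The ratio of Il6st to Il6r was 7.91, 7.09 and 8.81 in TZG, against 14.5, 16.1 and 13.8 in AIA and 13.1, 8.73 and 19.2 in NC. TZG lay below AIA without overlap, and overlapped NC through C59. These ratios were chosen after the values were seen and were not tested.

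**Figure D4:**
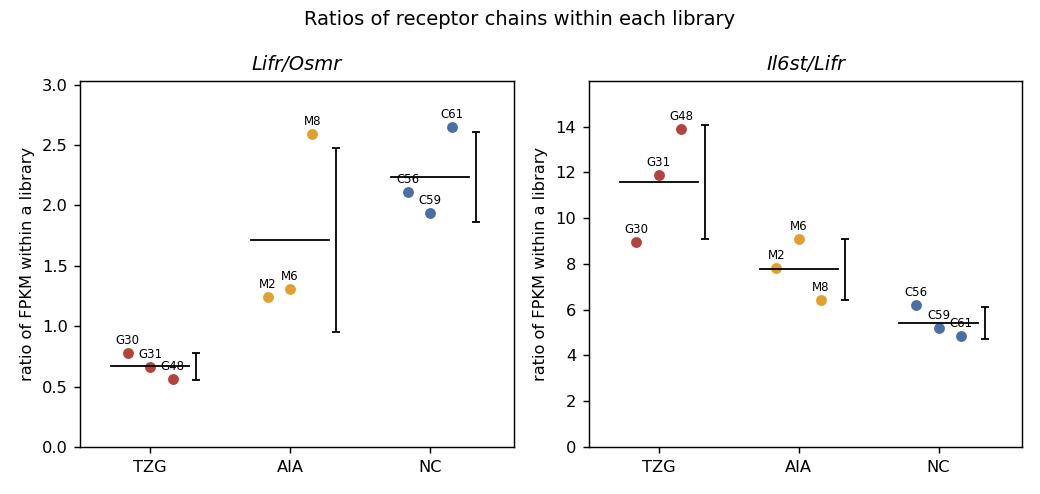
Ratio of FPKM within each library (vertical axes, from 0) for Lifr over Osmr and for Il6st over Lifr in TZG, AIA and NC; points are libraries, horizontal lines are group means and bars are SD (n = 3). Lifr over Osmr is at most 0.781 in TZG and at least 1.24 in the other libraries.

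In the deposited table Osm (chromosome 14, 84465515 to 84470409) and Lif (chromosome 14, 84482674 to 84500642) are neighbours, 12264 bases apart with no gene between them. Osmr (chromosome 2, 56110777 to 56151531) and Lifr (chromosome 2, 56426367 to 56489415) lie 274835 bases apart with 1 gene between them. Il6 (ENSRNOG00000010278) lies on chromosome 4 at 3043231 to 3047807. The build of these positions is not given in the sources used here. Both neighbouring ligands had their highest CPM in TZG libraries, while Osmr was on average higher and Lifr lower in TZG than in the other groups.

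Other genes of the pathway were taken from lists by role, chosen with earlier results of these data known. Of 7 feedback genes tested in TZG against NC, 3 rose and 0 fell, where 5.79% of all genes rose and 4.53% fell. The list's median log2 fold change was 0.53 against -0.02 over all genes. Socs3, which binds gp130 and blocks its kinases, stood at 57.1, 50.4 and 50 CPM in TZG libraries G30, G31 and G48, against 28.4, 20.8 and 8.89 CPM in AIA and 11.2, 8.62 and 15.3 CPM in NC. TZG lay above both other groups. Its log2 fold change was 2.17 ± 0.39 SE against NC (edgeR adjusted p = 0.018) and 1.44 ± 0.37 SE against AIA (edgeR adjusted p = 0.27; DESeq2 adjusted p = 0.02). The phosphatases Ptpn2 and Ptpn6 passed against NC with 0.8 and 1.43 (edgeR adjusted p = 0.024 and 0.042). In TZG against AIA the list had 4 positive and 3 negative values. After Socs3, Cish had the smallest p of the list there, at -1.53 ± 0.56 SE (edgeR adjusted p = 0.33), with TZG libraries below all of AIA.

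Of 10 JAK-STAT genes tested, 1 passed in TZG against NC, a share near the 10.3% of all genes. It was the kinase Jak2, at 129 ± 21.1 CPM in TZG and 68.8 ± 10.3 CPM in NC (SD, n = 3 each; log2 fold change 0.91 ± 0.18 SE, edgeR adjusted p = 0.022). The list's median was -0.01. The adaptor Shc1 had the next smallest p, at 0.57 (edgeR adjusted p = 0.052).

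Of 15 genes listed as STAT3 targets, 6 rose and 1 fell in TZG against NC, where 5.79% of all genes rose and 4.53% fell. The list's median log2 fold change was 0.81. Osmr is in this list as well. Timp1, an inhibitor of matrix metalloproteinases, stood at 176, 268 and 224 CPM in TZG libraries G30, G31 and G48, against 98.7, 112 and 43.8 CPM in AIA and 55.1, 48.6 and 27.4 CPM in NC. Its log2 fold change against NC was 2.35 ± 0.39 SE (edgeR adjusted p = 0.015). The transcription factors Cebpb, Cebpd and Hif1a had 1.05, 1.67 and 1.15, the kinase Pim1 1.42 and the interleukin-4 receptor chain Il4r 0.81 (edgeR adjusted p = 0.018 to 0.038). The gene that fell was cyclin D1, Ccnd1, at 106 ± 21.9 CPM in TZG and 297 ± 99.6 CPM in NC (SD, n = 3 each; log2 fold change -1.48, edgeR adjusted p = 0.023).

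Acute phase genes had 4 of 7 tested higher and 0 lower in TZG against NC, where 5.79% of all genes rose and 4.53% fell. The list's median was 2.15. Complement C3 stood at 143, 89.1 and 921 CPM in TZG libraries G30, G31 and G48, against 214, 379 and 203 CPM in AIA and 10.7, 12.8 and 11.1 CPM in NC. G48 carried much of the TZG mean: the log2 fold change against NC was 5.06 ± 0.89 SE (edgeR adjusted p = 0.018) and 3.34 without G48. Lipocalin 2 (Lcn2), an iron-binding protein of neutrophils and inflamed tissue, had 3.66 (edgeR adjusted p = 0.024; 2.72 without G48), haptoglobin (Hp) 1.67 and Saa4 0.88 (edgeR adjusted p = 0.034 and 0.028). C3 and Hp were also the acute phase genes with the smallest p in AIA against NC, at 4.52 and 1.65 (edgeR adjusted p = 0.099 and 0.12).

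Among genes that can induce Il6 or regulate its mRNA, 3 of 9 tested rose and 1 fell in TZG against NC. Of all genes, 5.79% rose and 4.53% fell. The list's median was 0.51. Il1b rose by 3.52 ± 0.41 SE on the log2 scale (edgeR adjusted p = 0.012). In AIA against NC it had 2.9 ± 0.4 SE, at 9.11 ± 2.94 CPM in AIA and 1.23 ± 0.459 CPM in NC without overlap (SD, n = 3 each; edgeR adjusted p = 0.075; DESeq2 adjusted p = 1.2e-08). Nfkbiz, an inducible NF-kB cofactor, stood at 36.4 ± 5.97 CPM in TZG and 9.32 ± 1.27 CPM in NC (SD, n = 3 each; log2 fold change 1.96, edgeR adjusted p = 0.013). Ptgs2, which makes prostaglandins, had 4.53, 14.9 and 5.11 CPM in TZG libraries G30, G31 and G48, against 1.61, 1.09 and 2.14 CPM in AIA and 1.08, 1.78 and 0.794 CPM in NC. Its log2 fold change against NC was 2.73 ± 0.55 SE (edgeR adjusted p = 0.023). The NF-kB subunit Rela had -0.5 (edgeR adjusted p = 0.033).

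Of 5 genes that govern shedding of the interleukin-6 receptor, 1 rose and 1 fell in TZG against NC. Rhbdf2, which carries the protease ADAM17 to the cell surface, rose by 0.88 ± 0.19 SE on the log2 scale in TZG against NC (edgeR adjusted p = 0.025), and Timp3, which inhibits ADAM17, stood at 190 ± 46.1 CPM in TZG and 507 ± 69.3 CPM in NC (SD, n = 3 each; log2 fold change -1.41 ± 0.24 SE, edgeR adjusted p = 0.016). Of the 5 genes tested the other 3 did not pass, where 10.3% of all genes passed. Of 8 other genes of the family tested in TZG against NC, 4 had positive and 4 negative values. The list's median log2 fold change was 0.14. Among them Ebi3, a subunit of interleukin-27, rose in TZG against NC, at 2.96 ± 1.05 CPM in TZG and 0.671 ± 0.24 CPM in NC (SD, n = 3 each; log2 fold change 2.13, edgeR adjusted p = 0.023). No gene of any of these 7 lists passed in edgeR in TZG against AIA or in AIA against NC with all libraries. Without C61, M8 and G48, 3 passed in AIA against NC, C3 and Il1b among them, where 1.2% of all genes did. DESeq2 called 6 list genes in TZG against AIA and 10 in AIA against NC, where it called 1.99% and 6.24% of all genes. Over the lists together, 23 of 61 genes tested passed in TZG against NC (37.7%, against 10.3% of all genes), 21 without C61, M8 and G48 (14.4% of all genes), and 4 to 23 with 1 library left out (2.18% to 8.59% of all genes), with the fewest without C56. In TZG against NC, lost calls were counted over the 9 fits that each left out 1 library. Timp1, Il1b and Nfkbiz lost 0 calls, Socs3, C3 and Cebpb 1, and Jak2, Timp3 and Lcn2 2. Ptpn2, Rhbdf2, Pim1, Ccnd1, Hif1a and Ptgs2 lost 3, Ebi3 and Saa4 4, and Cebpd and Rela 5. Ptpn6 and Hp lost 6, and Il4r 7. Without C61, M8 and G48, Hp no longer passed (edgeR adjusted p = 0.13).

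**Figure D5:**
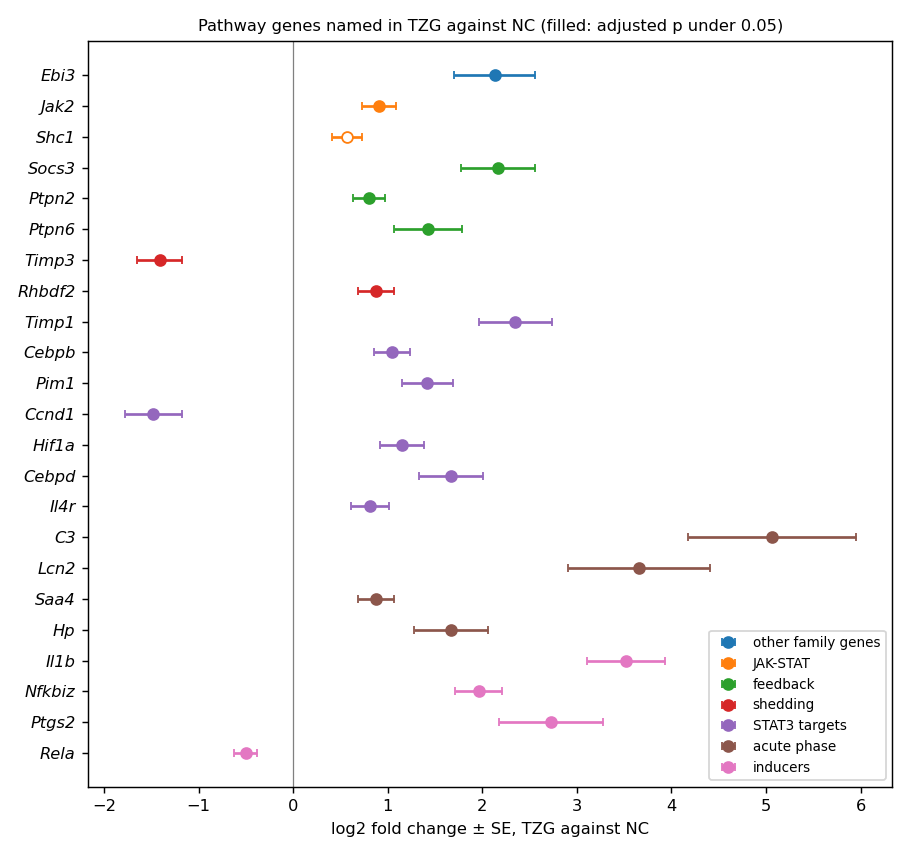
edgeR log2 fold change of TZG against NC (horizontal axis) with SE bars for the pathway genes described in that comparison, coloured by list; filled points have an adjusted p under 0.05. Genes are shown because they passed or had the smallest p in their list; Timp3, Ccnd1 and Rela lie left of 0 and the others right of it.

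Genes whose pattern over the 9 libraries lay nearest to each member were ranked by the root mean squared difference of centred log2 CPM among 10656 genes, as a description. Nearest to Il6 were Lox (0.55), Has2 (0.64) and Tnfaip6 (0.64), where Il6 itself varied by 1.61 about its mean. Lox, a collagen crosslinking enzyme, stood at 513 ± 47.4 CPM in TZG, 139 ± 89.2 CPM in AIA and 87.3 ± 30.9 CPM in NC (SD, n = 3 each), and Tnfaip6, a hyaluronan-binding protein, at 50.9 ± 14.5 CPM in TZG, 14.4 ± 11.3 CPM in AIA and 8.22 ± 3.51 CPM in NC. Nearest to Osm were Cebpd (0.35), Runx1 (0.35) and Cd300a (0.39), and nearest to Lif were Arhgef19 (0.32), Tnc (0.38) and P3h4 (0.39). Lifr had Dgke, Akap7 and Galnt15 (0.19 each) as its nearest genes, of which Galnt15 stood at 14.8 ± 6.3 CPM in TZG, 33.3 ± 6.1 CPM in AIA and 35.1 ± 2.71 CPM in NC. Il6st was nearest to Rad54l2, Nrde2 and Itga1, Osmr to Ralgds, Ptpn2 and Adam9, Il6r to Tmem104, Ttc39c and Ankrd26, and Il11ra1 to Hivep1, Golim4 and Ctsf, with differences of 0.07 to 0.17.

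Markers of other cells moved with some of these groups. All 10 neutrophil markers matched, and they summed to 471 to 3500 CPM in TZG, 394 to 3300 CPM in AIA and 46.1 to 119 CPM in NC, with Mmp8, Camp, Ltf and Elane at 0 in at least 1 NC library and Ltf at 0 in at least 1 library of each other group. Within TZG the neutrophil sum was lowest in G31 and highest in G48. Of the ligands in TZG, Il6 and Il11 were highest in G31, Osm was lowest in G31, and Lif was highest in G48. Il6 was lowest in G48. These orders were not tested. The 9 macrophage markers matched summed to 1130 to 1390 CPM in TZG, 851 to 1450 CPM in AIA and 311 to 1470 CPM in NC, so the groups overlapped, with Marco at 0 in at least 1 library of each. The 9 T cell markers matched also overlapped, at 110 to 181 CPM in TZG, 104 to 191 CPM in AIA and 40.3 to 201 CPM in NC. Fibroblast markers summed to 26100 to 72900 CPM in TZG, 15700 to 26800 CPM in AIA and 6710 to 36500 CPM in NC. The 7 endothelial markers matched summed to 1510 to 1800 CPM in TZG, 1900 to 2210 CPM in AIA and 1770 to 2490 CPM in NC, and the 10 adipocyte markers to 3940 to 9910 CPM in TZG, 12600 to 14900 CPM in AIA and 4970 to 16800 CPM in NC. In TZG against AIA both of these sums lay lower without overlap, as did Lifr, Il6st, Il11ra1 and 12.7% of tested genes. In TZG against NC both sums overlapped, as Il6st did, while Lifr lay lower without overlap. The bone list, which shares Col1a1 with the fibroblast list, summed to 13600 to 45600 CPM in TZG, 7110 to 13700 CPM in AIA and 3000 to 16600 CPM in NC. Sost was at 0 in at least 1 library of each group, and Ibsp in at least 1 library of AIA and of NC. The osteoclast list summed to 146 to 2660 CPM in TZG, 165 to 371 CPM in AIA and 81.8 to 193 CPM in NC. In TZG the highest fibroblast, bone and osteoclast sums were all those of G48. The TZG medians were 27600, 13900 and 338 CPM. Mast cell markers summed to 36.1 to 54.9 CPM in TZG, 49.4 to 66.8 CPM in AIA and 44.8 to 95.1 CPM in NC. The part of these cells in the results was not tested. Without C61, M8 and G48 the log2 fold change of Il6 was 3.85 in TZG against NC (edgeR adjusted p = 0.0055) and 3.08 in TZG against AIA (edgeR adjusted p = 0.13).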

How the data were processed

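Per the file headers, the deposited table holds raw read counts per gene, FPKM per library, the authors' group mean FPKM, and the authors' log2 fold changes with p-values and q-values. The submitters' processing notes name fastp, HISAT2, StringTie 1.3.3b and edgeR 3.30.3, with no roles; neither the genome build nor the strandedness of counting is given there or in the labels. Both deposited tables were identical and 1 was used. Columns were grouped by letter, and 4 per-sample FPKM columns were not used. FPKM of all 9 libraries were computed from counts with gene lengths recovered from the 5 matched FPKM columns (largest relative spread 0.0006).

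Counts were tested with edgeR 4.0.16 in R 4.3.3 (TMM factors, filterByExpr, robust quasi-likelihood test, Benjamini-Hochberg adjustment over 15068 genes, threshold 0.05) in 1 fit of all 9 libraries. The code was checked on simulated data with the same spread in every gene. That check does not show how the test behaves with libraries as uneven as these. CPM are TMM-scaled, and SE is the log2 fold change over the root of F. DESeq2 1.42.0, limma 3.58.1 (voom, and log2 of FPKM plus a pseudocount of 1), other scaling factors, filters and left-out libraries were alternatives. Members and gene lists were chosen with earlier results of these data known. Named were all members, every list gene past the threshold or up to the 2 smallest p of a list, and the 3 genes nearest each tested member with a mean of at least 5 CPM. Promoters came from RefSeq's table, matched by symbol for 6 of 9 members; motif letters were chosen with the sequences in view. The result of 1 listed gene is not reported here.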

Additional observations from a re-analysis of the deposited data

How the results depend on the processing

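Of 480 member values under alternatives, 429 kept direction and side of the threshold, 24 lost a call, 9 gained one and 18 changed sign. Members past the threshold in TZG against NC numbered 3, where 10.3% of all genes passed, against 5 in DESeq2, where 19.6% did. With only both groups fitted 1 member passed, where 526 of 14700 genes rose and 237 fell. With 1 library left out 0 to 3 members passed, where 2.18% to 8.59% of all genes did. In TZG against AIA members past the threshold numbered 0, against 3 in DESeq2, where 0% and 1.99% of all genes passed. In AIA against NC they numbered 0, against 1 in DESeq2, where 0.0133% and 6.24% of all genes passed. Both comparisons stayed at 0 members with 1 library left out, where at most 0% and 0.637% of all genes passed. Members' sign changes in AIA against NC were -0.01 for Il6 (without M6), -0.0008 for Il6r (without C61) and -0.05 (without C61, M8 and G48), 0.3 for Lif (matched columns), 0.02 (without C59) and 0.06 (without M8), -0.18 for Lifr (matched columns), -0.03 (without C59), -0.12 (without M8) and -0.1 (without C61, M8 and G48), and 0.03 for Il11ra1 (without C59). In TZG against AIA the 1 such member value was -0.01 for Osmr (without M8); among pathway list genes, which are not in the 480, Cntfr had 0.35 and Lbp -0.09 (both matched columns). In TZG against NC they were all of Il6st: 0.01 (upper-quartile factors), 0.07 (log2 FPKM), 0.01 (only both groups), 0.18 (matched columns), 0.12 (without C56) and 0.1 (without G31). With 1 library left out, values in AIA against NC reached 1.4 for Il6, 1.69 for Osm (without C59), 0.31 for Osmr (without M2), 0.48 for Il6r, -0.83 for Lif and -0.38 for Il11ra1. The cause was not tested. Leaving out C61, M8 and G48 together was chosen after seeing the data. All genes past the threshold in TZG against NC numbered 1555 in edgeR and 2951 in DESeq2, in TZG against AIA 0 and 300, and in AIA against NC 2 and 940. No paired analysis was made because the labels name no pairing of libraries between groups. Reads of Il6, Lif, Osm and Il11 in AIA and NC limit what their comparison can show.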
